A study of Mus musculus with 6 samples.

Results

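Genes that natural killer (NK) cells use to sense and kill target cells were examined in brain microglial isolates of mice with experimental autoimmune encephalomyelitis (EAE), an induced inflammatory disease of the central nervous system. The set has 9 genes, found by name in the array annotation: the lectin-like receptor genes Klrc1, Klrd1, Klrk1 and Klrb1c, the receptor gene Ncr1, and the cytotoxic granule genes Nkg7, Gzma, Gzmb and Prf1. The choice of these genes was made with earlier results of these data known. All 9 of 9 were on the array, each with 1 probe set, out of 19505 genes on 22206 probe sets. The study used 3 control arrays and 3 arrays from mice labelled as a B cell conditional knock-out (CKO), which the series title ties to B cells expressing GM-CSF. All mice were female C57BL/6, given recombinant MOG protein (rMOG) in the oil adjuvant IFA with pertussis toxin, and sampled when disease peaked. No source used here gives the deleted gene, the Cre driver, the controls' own alleles, the age of the mice or how microglia were isolated. Nor do the labels say that replicates are separate animals. A p-value here sets the group difference against the variation among these samples, which may be technical only.

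NK cells are innate lymphocytes that weigh signals from activating and inhibitory receptors and then kill through secreted granules. Klrd1 (CD94) pairs with Klrc1 (NKG2A) into an inhibitory receptor, Klrk1 (NKG2D) and Ncr1 (NKp46) are activating receptors, and Klrb1c carries the NK1.1 antigen by which NK cells of C57BL/6 mice are recognised. Prf1 (perforin) forms pores through which the granule proteases encoded by Gzma and Gzmb enter the target, and Nkg7 is a membrane protein of the granules. Activated CD8 T cells also make the granule proteins, Klrk1 and, in part, Klrc1 and Klrd1, whereas Ncr1 is closer to NK cells and related innate lymphoid cells.

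The promoters are shown first because a short letter pattern recurred in them. RefSeq start-site windows (build GRCm38.p6, 250 bases before to 50 after the start) were found for 8 of the 9 genes, Klrd1 being the gene without one. The letters TGTGGT, the core bound by Runx transcription factors of lymphocytes, were present on 1 strand or the other in 8 of these 8 genes, against 16.8% of all 32851 windows and 14.3% of the 19143 windows of genes on the array. This pattern was singled out after its counts were seen, among 8 patterns searched on both strands. Among genes of other lists with a window, TGTGGT was in 4 of 18 further Klr genes and 8 of 18 further granule and death-ligand genes. It was in 0 of 7 T cell marker genes and 2 of 5 microglial marker genes. Each match is given with 20 bases on either side, in the direction of the gene, with the pattern in capitals; ACCACA is the same pattern on the opposite strand.
Klrc1, chr6:129679035-129679080, minus strand: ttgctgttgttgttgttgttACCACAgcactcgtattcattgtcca
Klrk1, chr6:129623968-129624013, minus strand: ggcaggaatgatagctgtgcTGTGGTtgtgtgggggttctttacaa
Klrb1c, chr6:128788705-128788750, minus strand: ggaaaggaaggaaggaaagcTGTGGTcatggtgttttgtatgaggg
Ncr1, chr7:4337519-4337564, plus strand: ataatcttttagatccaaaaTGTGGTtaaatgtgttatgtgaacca
Ncr1, chr7:4337654-4337699, plus strand: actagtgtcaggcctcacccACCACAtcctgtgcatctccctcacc
Nkg7, chr7:43437035-43437080, plus strand: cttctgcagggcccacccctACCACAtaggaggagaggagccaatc
Gzma, chr13:113101006-113101051, minus strand: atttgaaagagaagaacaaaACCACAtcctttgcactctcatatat
Gzmb, chr14:56262402-56262447, minus strand: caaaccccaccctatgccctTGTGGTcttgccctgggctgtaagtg
Gzmb, chr14:56262343-56262388, minus strand: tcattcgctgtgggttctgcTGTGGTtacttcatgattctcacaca
Prf1, chr10:61297686-61297731, plus strand: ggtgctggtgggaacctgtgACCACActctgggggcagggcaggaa

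The other patterns were less common in the set. AGGTGT, the T-box core, was in 3 of 8 genes (Gzma, Nkg7 and Prf1; 13.7% of all windows). TGANTCA, the AP-1 pattern, was in 2 of 8 (Gzmb and Klrk1; 7.81%), and GGAAGT, an Ets core, in 2 of 8 (Klrb1c and Prf1; 23.8%). Longer forms, which overlap the cores, were rarer: TGTGGTTT in Gzma alone (1.78% of windows), AGGTGTNA in Nkg7 alone (3.03%), and CACTTCCT (4.07%) and the CRE pattern TGACGTCA (1.79%) in 0 of 8. A match describes letters in a window, not a bound site. The window of Gzmb, chr14:56262285-56262584 on the minus strand, is printed whole because it held 2 Runx cores with an AP-1 pattern between them, all in capitals.
Gzmb: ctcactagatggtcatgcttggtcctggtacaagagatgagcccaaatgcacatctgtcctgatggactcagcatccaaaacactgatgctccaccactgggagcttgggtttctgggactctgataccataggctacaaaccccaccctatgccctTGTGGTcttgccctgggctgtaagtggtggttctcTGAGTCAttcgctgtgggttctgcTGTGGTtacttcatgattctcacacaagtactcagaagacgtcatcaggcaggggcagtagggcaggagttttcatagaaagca

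Several features of the arrays bear on the values. Values are log2 expression made by the authors with RMA. Values were less spread on CKO replicates 2 and 3 (interquartile ranges of 3.08 and 3.11) than on the other 4 arrays (3.66 to 4.00). Astrocyte markers deviated from their 6-array mean by 2.96 on CKO replicate 1 and 1.44 on control replicate 2, against -1.54 to -0.84 elsewhere. P2ry12, a defining marker of microglia, was at 18.76 to 19.35 in controls and 19.65 to 19.72 in CKO. Not every microglial marker was higher in CKO: Tmem119 was at 13.01 to 14.03 in controls and 12.29 to 14.77 in CKO.

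All 9 genes had lower values in CKO, as did 44.5% of probe sets, with a median log2 difference of -1.54, while the median over all probe sets was 0.06. Of the 9, 0 passed a limma test at adjusted p under 0.05 over all probe sets, a rule that called 2 probe sets (0.00901%). At an unadjusted p under 0.05, 8 were lower (all but Ncr1), where 6.35% of probe sets were, and 0 were higher, where 3.55% were. At adjusted p under 0.1 the count was 0 of 9 (0.198% of probe sets). Every CKO array lay below every control array for 7 of them (all but Ncr1 and Prf1), where 8.48% of probe sets did so. Because the set was chosen with earlier results of these data known, its counts beside those shares are descriptions, not tests. Fewer cells carrying these transcripts and less RNA per cell cannot be told apart in such bulk samples.

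**Figure D1:**
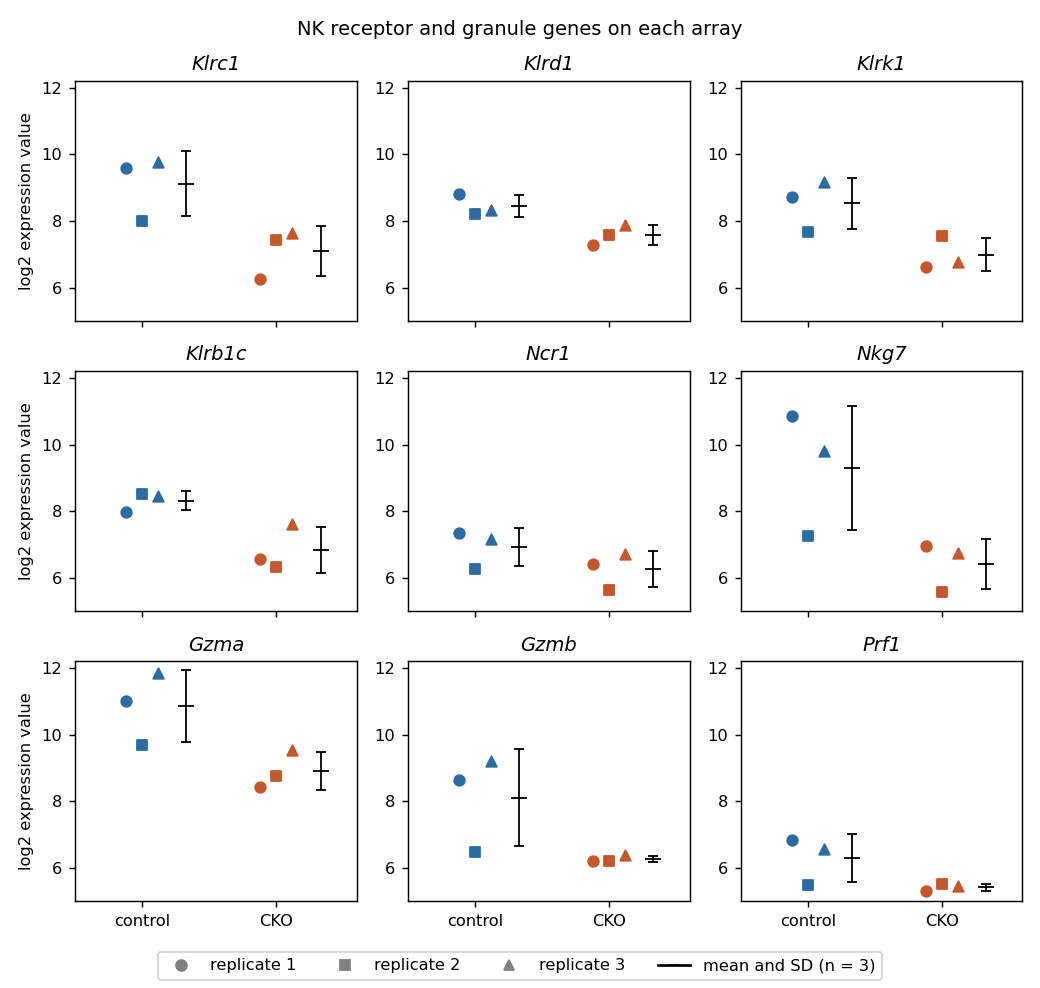
Log2 expression value (vertical axis) of the 9 genes on each of the 6 arrays, with control in blue and CKO in orange, marker shapes for replicates, and black bars for the group mean and SD (n = 3). Control replicate 2 (square) is the lowest control for every gene except Klrb1c.

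Klrc1 and Klrd1 encode the partners of the inhibitory CD94/NKG2A receptor. Klrc1 was at 9.59, 8.0 and 9.77 in controls and at 6.25, 7.43 and 7.63 in CKO (here and later in the order of replicates 1, 2 and 3). The groups were separated by 0.37 between the lowest control and the highest CKO array. The log2 difference was -2.02 (95% interval -3.27 to -0.77, limma adjusted p = 0.247), a 4.05-fold lower level in CKO. Its partner Klrd1 stood at 8.81, 8.21 and 8.33 in controls and 7.28, 7.58 and 7.89 in CKO. This was a tight pattern, with SDs of 0.32 and 0.31 and no overlap, and a smaller difference of -0.87 (-1.55 to -0.18, limma adjusted p = 0.394).

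Klrk1, the activating NKG2D receptor, had control values of 8.73, 7.68 and 9.17 and CKO values of 6.63, 7.56 and 6.77. Control replicate 2 and CKO replicate 2 came within 0.12 of each other without overlap. The difference was -1.54 (-2.54 to -0.54, limma adjusted p = 0.282). Klrb1c, which carries NK1.1, was at 7.99, 8.53 and 8.45 in controls and at 6.56, 6.33 and 7.62 in CKO. Here control replicate 2 was the highest array, and the difference was -1.49 (-2.37 to -0.61, limma adjusted p = 0.231), the lowest adjusted p of the 9.

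Ncr1, the activating NKp46 receptor and the member least shared with T cells, had values of 7.35, 6.27 and 7.17 in controls and 6.43, 5.65 and 6.72 in CKO. The groups overlapped, since control replicate 2 lay below CKO replicates 1 and 3. The difference of -0.66 had an interval that included 0 (-1.58 to 0.26, limma unadjusted p = 0.136, adjusted p = 0.598). Leaving out CKO replicate 2 gave -0.35, and leaving out control replicate 2 gave -0.99.

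Among the granule genes, Nkg7 differed by -2.88 (-4.79 to -0.98, limma adjusted p = 0.287), the furthest of the 9 from 0. It was at 10.87, 7.26 and 9.81 in controls and 6.97, 5.58 and 6.74 in CKO. Its control SD was 1.86, and control replicate 2, the lowest control, lay 0.29 above the highest CKO array. Gzma, the protease granzyme A, was at 11.02, 9.70 and 11.86 in controls and 8.44, 8.75 and 9.54 in CKO. Its difference was -1.95 (-3.20 to -0.70, limma adjusted p = 0.269), and its group means stood at percentiles 84.9 and 71.1 of all probe sets.

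Gzmb, the protease granzyme B, was at 8.63, 6.47 and 9.22 in controls, while all CKO arrays lay in a narrow band of 6.21, 6.22 and 6.39. Control replicate 2 was 0.08 above that band. The difference was -1.83 (-3.27 to -0.40, limma adjusted p = 0.384). Prf1, perforin, had values of 6.85, 5.49 and 6.58 in controls and 5.30, 5.52 and 5.45 in CKO. Control replicate 2 lay inside the CKO values, and the difference was -0.88 (-1.75 to -0.02, limma adjusted p = 0.498). The CKO mean of Prf1 was at percentile 16.7 of all probe sets, among the dim ones.

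**Figure D2:**
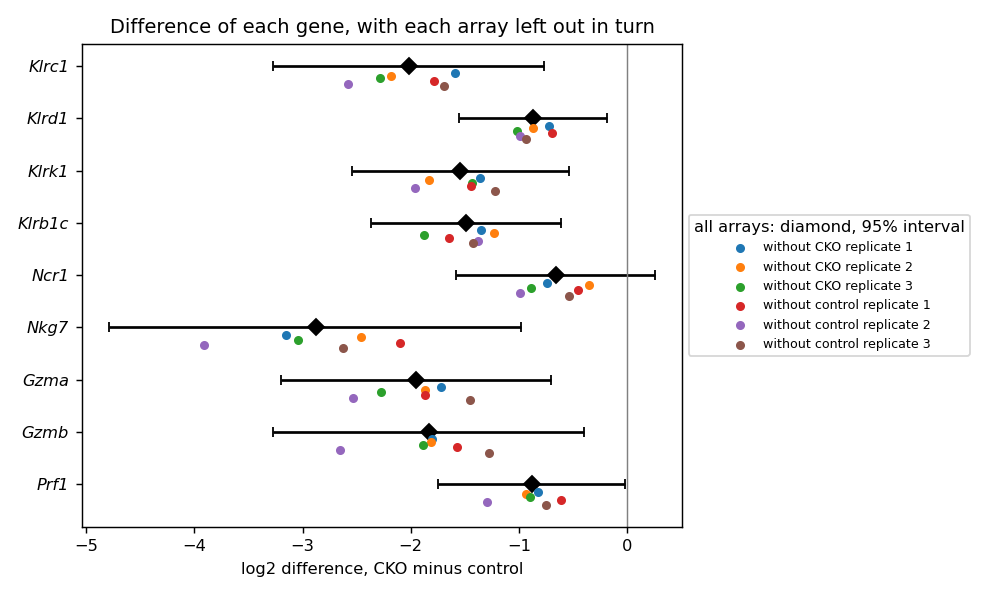
Log2 difference, CKO minus control (horizontal axis), for each gene: diamonds with 95% limma intervals use all 6 arrays, and coloured dots leave out 1 array each. Every dot lies below 0, and leaving out control replicate 2 (purple) gave the value furthest from 0 for every gene except Klrd1 and Klrb1c.

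Control replicate 2 split the set. Measured from the CKO mean towards the mean of control replicates 1 and 3, it stood at 122.4% of the way for Klrb1c and 63.5% for Klrd1. For Klrc1, Klrk1, Gzma and Nkg7 it stood at 34.8%, 35.3%, 31.2% and 21.2%. For Gzmb, Prf1 and Ncr1 it was at 7.4%, 5.2% and 0.3%, close to the CKO mean. The set as a whole was at 31.7%, T cell markers at 43.0% and monocyte markers at 63.5%, and astrocyte markers were high on this array. Without it, Nkg7 and Gzmb passed (-3.91 and -2.65, limma adjusted p = 0.0356 and 0.0306), 2 of 9 genes where 0.563% of probe sets were called as lower, and all 9 had an unadjusted p under 0.05 (6.25% of probe sets lower). Without control replicate 2 and CKO replicate 1, the arrays of highest astrocyte markers, 6 of 9 passed, where 6.28% of probe sets did as lower. The CKO arrays left there are those of narrow spread, and the group cannot be told apart from that spread. Without CKO replicate 1 alone the count was 0 of 9 (4.94%), and with array weights it was 4 of 9 (4.76%). The weight of CKO replicate 1 was 0.2577, against 1.0491 and 1.4280 for CKO replicates 2 and 3. The weighted fit thus also rests mostly on the CKO arrays of narrow spread. At an unadjusted p under 0.05, 5 of 9 were lower without control replicate 1 (3.84%) and 5 of 9 with CKO replicate 1 as the only CKO array (4.88%).

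T cell markers differed in the same direction. All 12 measured were lower in CKO (44.5% of all probe sets), 11 of them at an unadjusted p under 0.05 (6.35%), with a median log2 difference of -2.89. These shares, and the 3.55% of probe sets higher at that p, are the background for every gene list below. The mean deviation of the T cell markers was 1.99, 0.08 and 1.93 in controls and -1.62, -1.23 and -1.16 in CKO. The 9 NK and granule genes deviated by 1.22, -0.14, 1.28, -0.98, -0.92 and -0.46 on the same arrays. For Cd3e, which T cells need for antigen receptor signals, the difference was -4.17, and for Cd8a, the co-receptor of cytotoxic T cells, -3.49. Monocyte markers were lower in 6 of 6 (median -1.75), and of 8 astrocyte markers 6 were higher (median 0.82). Of 8 microglial markers measured, 6 were higher in CKO, with a median of 0.42. Their mean deviation was 0.02, -0.06 and -0.50 in controls and 0.60, -0.03 and -0.03 in CKO. CKO replicates 2 and 3 thus lay between control replicates 1 and 2. At an unadjusted p under 0.05, 2 of the 8 were higher, and 0 passed over all genes. The 2 with that p were Fcrls at 1.21 and Gpr34 at 0.89 (limma adjusted p = 0.312 and 0.383). Tmem119 (-0.44) and Sall1 (-0.16) were lower, and Csf1r was at 0.03. Under the other scalings 1 to 3 of the 8 were lower. The part of these cell types in the NK and granule values was not tested.

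**Figure D3:**
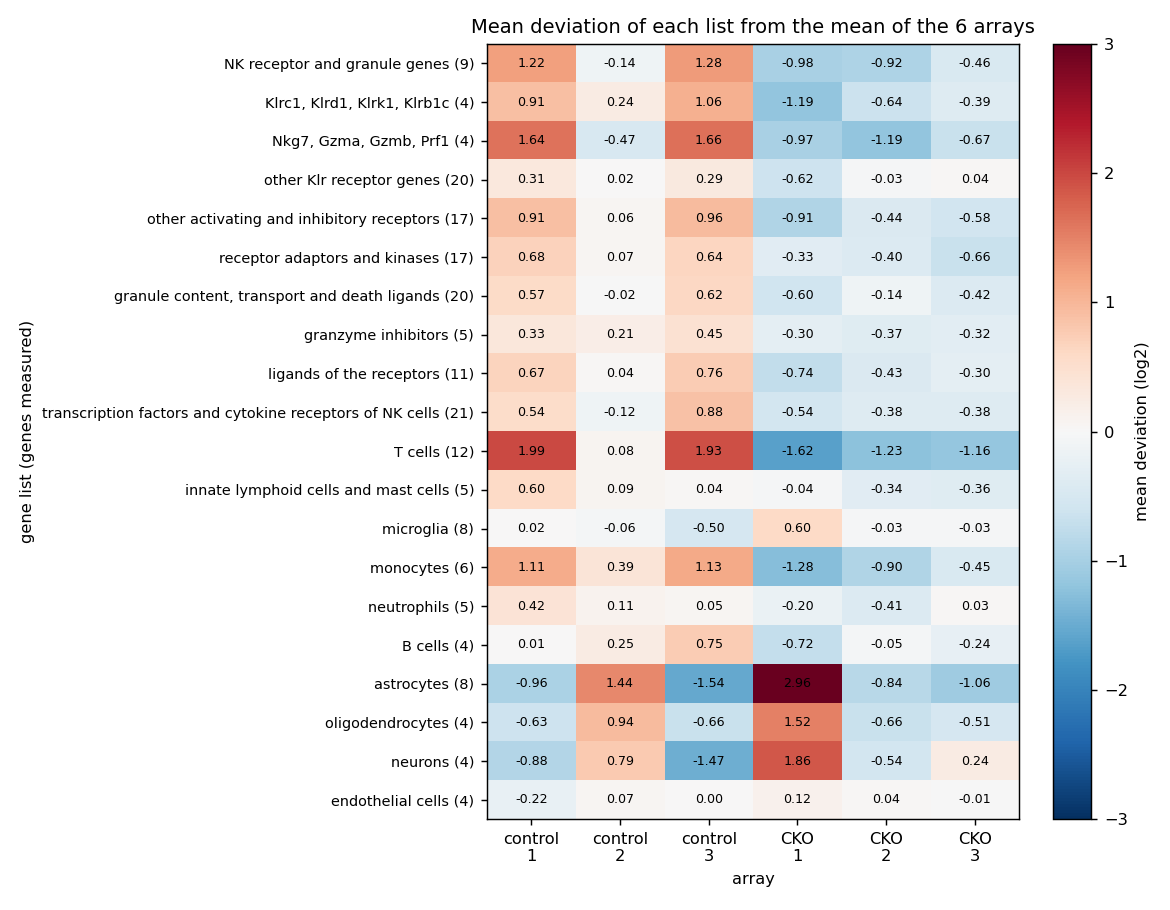
Mean log2 deviation of each gene list (rows, with the number of genes measured) from the 6-array mean on each array (columns), red above and blue below it. The NK receptor and granule genes run from 1.28 to -0.98 and T cell markers from 1.99 to -1.62, both with control replicate 2 near 0, while astrocyte markers peak on CKO replicate 1.

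Besides the 9 genes, 3 others were listed as NK cell markers: Eomes, Itga2 and Klre1. None of these 3 passed the test, and the groups overlapped for each. Eomes, a transcription factor of mature NK cells, was at 7.45, 5.92 and 7.46 in controls and 5.94, 6.36 and 7.30 in CKO, which overlap (log2 difference -0.41, limma adjusted p = 0.786). Itga2, the NK cell integrin CD49b, differed by 0.17 (adjusted p = 0.919), and Klre1, an NK receptor, by -0.58 (0.577). With 95% intervals of -1.58 to 0.76, -0.99 to 1.34 and -1.33 to 0.17, these values do not show that the 3 genes were unaltered.

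Of 23 further Klr receptor genes listed, 20 were measured. Of these, 16 were lower in CKO (44.5% of all probe sets), 3 of them at an unadjusted p under 0.05 (6.35%), and 0 were called over all genes. Their median log2 difference was -0.31. Klrb1b, an inhibitory receptor for the ligand Clec2d, was at 10.07, 9.18 and 9.69 in controls and 6.40, 6.82 and 7.36 in CKO. It stood well apart between groups, at -2.79 (SE 0.36), and missed the threshold (limma adjusted p = 0.0745). Klra2, of the Ly49 family, differed by -1.66 (adjusted p = 0.245) and Klrb1f by -1.01 (0.357), both without overlap. Klra6, of the same family as Klra2, had higher CKO values at 0.98 (0.538) with overlapping groups. Klr genes are close relatives, so probes may not separate them fully. Of the 9 genes, 0 had values identical to those of another probe set. Partial cross-reaction of probes would not give identical values, so this count does not address it.

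The 4 lectin-like receptor genes lie in the NK gene complex of chromosome 6. Between Klrb1a and Klra1 the RefSeq annotation has 42 protein-coding genes, 38 of them measured. Of the 17 Klr genes there outside the set, 13 were lower in CKO (44.5% of all probe sets), with a median of -0.25. At an unadjusted p under 0.05, 2 of the 17 were lower (6.35% of all probe sets). Immediate neighbours had unlike values: Klrc2 and Klrc3, next to Klrc1, were at -0.49 (limma adjusted p = 0.616) and -0.05 (0.975), against -2.02 for Klrc1, though these differences between genes were not tested. Klrc2 and Klrc3 had means of 4.75 and 5.13 in controls, in the dim range of the arrays.

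**Figure D4:**
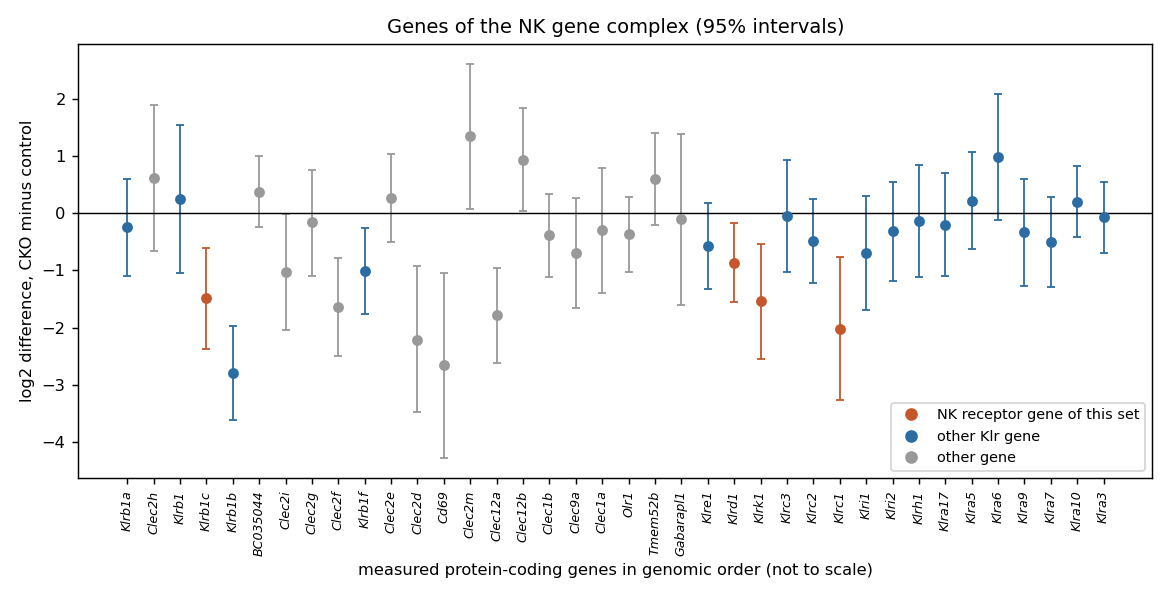
Log2 difference, CKO minus control, with 95% limma intervals (vertical axis) for the 38 measured genes of the NK gene complex in genomic order (horizontal axis, not to scale). The 4 receptor genes of the set (orange) lie below 0, as does Klrb1b, while the intervals of all 7 Ly49 (Klra) genes at the right end include 0. Klra2, a Ly49 gene that is not among the 38 plotted, was at -1.66 (-2.67 to -0.64).

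Of 17 further receptors of lymphocytes 14 were lower, 11 at an unadjusted p under 0.05 and 0 called over all genes (median -1.14). Slamf7, a receptor of NK and plasma cells, differed by -3.69 (limma adjusted p = 0.0891), from 11.63 ± 0.41 (SD, n = 3) to 7.94 ± 1.16. Ly9, a related receptor, differed by -1.84 (0.109), Tigit, an inhibitory receptor, by -1.66 (0.121) and Itgal, the alpha chain of the adhesion integrin LFA-1, by -2.63 (0.176). Fcgr3, the Fc receptor by which NK cells see antibody-coated targets but which microglia also make, was at 18.72 to 19.01 on all arrays (-0.14, adjusted p = 0.86).

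Adaptors and kinases that carry receptor signals were lower in 17 of 17, 8 of them at an unadjusted p under 0.05 and 0 over all genes (median -0.86). Hcst (DAP10), which couples Klrk1, was at 7.46, 7.17 and 6.43 in controls and 5.99, 6.25 and 6.23 in CKO, without overlap (-0.86, limma adjusted p = 0.444). Tyrobp (DAP12), also used by microglia for Trem2, differed by -0.67 (0.495). Sh2d1b1 (EAT-2), an adaptor of SLAM family receptors, differed by -1.26 (0.172), Zap70, a kinase of NK and T cells, by -1.80 (0.286), Ptpn6, the phosphatase SHP-1 of inhibitory receptors, by -1.32 (0.314), and Cd247, the zeta chain shared by T cell and NK receptors, by -1.27 (0.32).

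Of 20 other granule, secretion and death-ligand genes, 15 were lower, 11 at an unadjusted p under 0.05 and 0 over all genes (median -0.83). Srgn, serglycin, the proteoglycan that packs granule proteases and that myeloid cells also make, was at 16.15 ± 0.08 and 14.59 ± 0.43 (limma adjusted p = 0.121). Tnfsf10, the death ligand TRAIL, differed by -1.72 (0.166), Ctsw, a cathepsin of cytotoxic lymphocytes, by -2.09 (0.245) and Lyst, needed for granule release, by -0.92 (0.271). Gzmk, a further granzyme, was at 10.37, 7.03 and 10.59 in controls and 5.98, 6.69 and 6.85 in CKO, again with control replicate 2 next to the CKO arrays (-2.82, adjusted p = 0.319). Gzmm ran the other way, at 0.75 (0.543), with overlapping groups.

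Granzyme inhibitors and receptor ligands were measured in the same isolates. Of 5 inhibitor genes 4 were lower, 2 at an unadjusted p under 0.05 and 0 over all genes (median -0.35): Serpinb6b at -1.95 (limma adjusted p = 0.152) and Serpinb9, which inhibits granzyme B, at -1.46 (0.345). Serpinb9b was at 0.79 (0.518). Of 11 ligand genes 9 were lower, 7 at an unadjusted p under 0.05 and 0 over all genes (median -1.03). H2-T23, which encodes the Qa-1 molecule seen by the CD94/NKG2A receptor, was at 13.90, 12.91 and 14.29 in controls and 11.30, 11.39 and 11.15 in CKO. That is a difference of -2.42 without overlap (adjusted p = 0.0969), beside the -2.02 and -0.87 of its receptor genes Klrc1 and Klrd1. Clec2d, the ligand of Klrb1b, differed by -2.21 (0.217), Cd48, a ligand of the receptor 2B4, by -1.37 (0.152), and Cfp, properdin, a ligand described for Ncr1, by -1.66 (0.108). Ulbp1, a ligand of Klrk1, was at 8.56, 7.43 and 9.08 in controls and 7.76, 6.62 and 6.37 in CKO, which overlap (-1.44, adjusted p = 0.40). The 2 ligand genes with higher CKO values were H60c, also a ligand of Klrk1, at 0.30 (0.775) and Clec2h at 0.62 (0.709). The groups overlapped for both.

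Transcription factors and cytokine receptors of NK cells were lower in 16 of 21, 9 at an unadjusted p under 0.05 and 0 over all genes (median -0.75). Among them were chains of receptors for interleukins that drive NK cells: Il18r1 at -2.86 and Il18rap at -1.72 (both limma adjusted p = 0.121), and Il2rb, the shared chain for IL-2 and IL-15, at -3.33 (0.195). Prdm1, a transcription factor of effector lymphocytes, differed by -1.22 (0.172). The IL-12 receptor chains Il12rb1 and Il12rb2 were at -0.05 and -0.29 (limma adjusted p = 0.971 and 0.845). Of the 21 genes, 5 were higher, among them the transcription factor Tbx21 at 0.10 (0.936) and S1pr5 at 0.22 (0.836). Il15 itself, which sustains NK cells, was at 9.29 ± 0.30 and 9.29 ± 0.37 (difference 0.00, adjusted p = 0.997). Under the other scalings, these list counts moved by up to 3 genes.

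Genes with a pattern most like the set were ranked by Pearson r with the mean standardised value of the 9 genes over the 6 arrays, which share the group difference. Itgal and Rara, a retinoic acid receptor, were first with r of 0.998, followed by Ccdc163 (0.996), Txn1, thioredoxin (0.994), and Slc28a2, a nucleoside transporter (0.991). Il2rb, Septin1 and Grap2, an adaptor of T cell signalling, were at 0.990. Of 17033 genes ranked, 414 had r over 0.9.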

How the data were processed

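TRIzol RNA of brain microglia was prepared for Affymetrix arrays, per the labels' protocols. The deposited table holds log2 values made by the authors with RMA, per the submitters' processing notes; no source used here gives settings or the annotation build, and no signal over background was used. Groups came from the sample titles. The probe set with the highest mean stood for a gene. All 22206 probe sets entered 1 linear model per feature (limma 3.58.1, R 4.3.3; CKO minus control, no covariate; two-sided, Benjamini-Hochberg over all probe sets), which was tested on simulated data. With 3 arrays a group, an exact permutation test could not pass 0.05. Members and lists were chosen with earlier results of these data known, with up to 4 genes named per list by smallest p, ligands of the receptors, listed NK markers, Cd3e and Cd8a as T cell markers, and 8 genes by likeness. P2ry12, Fcrls, Gpr34, Tmem119, Sall1, Csf1r, Fcgr3, Hcst, Tyrobp, Gzmk, Gzmm, Il15, Klrc2 and Klrc3 lie outside this rule and were chosen after their values were seen. The same holds for Il12rb1, Il12rb2, Tbx21 and S1pr5. Listed genes without a probe set here were not analysed here. Other settings were quantile normalization, median centring, cyclic loess, filters on the dimmest 20% and 50%, array weights, a fit with trend and robust variance, each array left out, replicate number as block, averaged probe sets and an adjusted p under 0.1; the arrays of low astrocyte markers and CKO replicate 1 alone were chosen after seeing the data.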

Additional observations from a re-analysis of the deposited data

How the results depend on the processing

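Each of the 9 genes stayed lower in CKO in all 150 refits over 17 settings; 138 kept their side of the threshold and 12 passed it. The median difference of the 9 ran from -1.96 to -1.28. Genes of the set called at adjusted p under 0.05 were 0 in most settings, 4 with array weights (Klrc1, Klrk1, Nkg7 and Gzma), 6 on the arrays of low astrocyte markers (also Gzmb and Prf1), and 0 to 2 with an array left out. The count at an unadjusted p under 0.05 was 5 with CKO replicate 1 alone against the controls and 5 to 9 with an array left out; the 5 without control replicate 1 were Klrc1, Klrk1, Klrb1c, Nkg7 and Gzma. Probe sets called numbered 1 under quantile normalization and with the dimmest 20% or 50% left out, 4 with the trended robust fit, 1694 with array weights, 0 with the replicate block, 0 with CKO replicate 1 alone, 2516 on the arrays of low astrocyte markers, 44 at adjusted p under 0.1, and 0 to 2209 with an array left out. The cause was not tested. Median centring moved the median of all probe sets by -0.12 and the share of lower among probe sets at an unadjusted p under 0.05 from 64.1% to 79.3%; the median of the 9 was then -1.66. With the replicate block, 0 of the 9 genes passed at adjusted p under 0.05, as without it, and 7 in place of 8 had an unadjusted p under 0.05 (Prf1 went from 0.0468 to 0.0579 in limma). Same-numbered arrays deviated from their group means with correlations of -0.0055, -0.2301 and 0.2543, and control replicate 2 and CKO replicate 1 with 0.3044. With so few arrays these values cannot decide whether numbers mark pairs. The labels do not say that they do, so the main fit used no pairing. The dimmest 50% included Ncr1, Gzmb and Prf1, which gave no value there.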

Other observations

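Other genes of the NK gene complex, which are not NK receptors, were read along with the Klr genes; those named here were chosen after their values were seen. Of 17 measured, 11 were lower in CKO (44.5% of all probe sets). At an unadjusted p under 0.05 in limma, 5 were lower (6.35%) and 2 were higher (3.55%), and 0 passed over all genes. Cd69, an early activation marker of lymphocytes, had a control mean of 11.25 ± 1.07 and a CKO mean of 8.59 ± 1.28 (SD, n = 3), a log2 difference of -2.66 (limma adjusted p = 0.241). Clec12a, an inhibitory lectin of myeloid cells, was at 13.01 ± 0.08 and 11.22 ± 0.66, with a difference of -1.78 (limma adjusted p = 0.138). Clec12b and Clec2m had higher CKO values, at 0.93 and 1.34 (limma adjusted p = 0.494 and 0.484). Clec12b was dim, with its control mean at percentile 11.3 of all probe sets. For Clec2m the groups overlapped, and CKO replicate 3 was the highest array at 8.54.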
